A study of Mus musculus with 24 samples.

Results

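The comparison described here is female against male inner medulla after cisplatin, for genes on the autosomes, in 11 of the 24 libraries of the series. It took the 5 female and 6 male libraries labelled as cisplatin, left out genes on chromosomes X and Y, and kept genes with at least 10 counts in at least 5 of the 11 libraries. That left 16431 of 48081 autosomal genes in a table of 55416. All mice were C57BL/6, 9 to 10 weeks old at a single intraperitoneal injection of 100 µl of saline, with or without cisplatin (dose 15 mg/kg), 72 h before the inner medulla was taken. The other 13 libraries, 7 female and 6 male, came from mice given saline alone and serve here as the female-male difference without the drug. Polyadenylated RNA was sequenced by a service provider. The labels do not tie each library to an animal of its own, so p-values here refer only to spread among these libraries, which may be technical. Library totals were 18796387 to 23894836 counts in the female cisplatin group and 19341760 to 27279102 counts in the male one. Levels are given as counts per 1e+06 counts of the library (CPM), with library sizes scaled by TMM factors.

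Cisplatin is a platinum drug that crosslinks DNA, and it injures the kidney chiefly through the proximal tubule, which takes it up. The inner medulla holds collecting ducts, thin limbs of the loop of Henle, capillaries and interstitial cells, and concentrates the urine. Male and female mouse kidneys differ in many transporters and drug-metabolising enzymes of the proximal tubule, under the control of androgens and other sex hormones. Lcn2 encodes neutrophil gelatinase-associated lipocalin, a secreted protein that injured tubules make and that is used as a marker of kidney injury.

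Collecting duct genes were high in all 11 libraries. Aqp2, the vasopressin-regulated water channel, had 5820 ± 1130 CPM (SD, n = 5) in females and 6680 ± 1690 (SD, n = 6) in males. The 13 principal cell genes summed to 7360 to 10200 CPM in females and 5980 to 11800 in males. The 16 proximal tubule genes summed to 1310 to 2940 CPM in females and 1750 to 2900 in males. Most of that was Aqp1, a water channel gene that thin limbs also express, at 1190 to 2510 and 1300 to 2620 CPM. The other 15 summed to 79.7 to 438 CPM in females and 68.1 to 1090 in males. The 7 thick ascending limb genes summed to 4110 to 9840 and 2050 to 8520 CPM. In bulk tissue, fewer cells of a type and less RNA per cell cannot be told apart.

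Injury strength varied widely within each sex. Lcn2 stood at 545, 111, 122, 3510 and 2090 CPM in female cisplatin libraries 1 to 5, and at 3990, 6560, 2560, 1260, 2460 and 212 CPM in male libraries 1 to 6. Female libraries 2 and 3 lay within the range of the saline libraries, 49.4 to 130 CPM, and male library 6 lay just above it. The groups overlapped from 212 to 3510 CPM. On the log2 CPM scale the mean was 9.11 ± 2.28 (SD, n = 5) in females and 10.86 ± 1.73 (SD, n = 6) in males. The difference of -1.74 (females minus males) was within the spread between libraries (two-sided exact permutation test over 462 splits, p = 0.175). For the cisplatin comparison, counts of called genes and list medians are given without and with log2 CPM of Lcn2 as a covariate for injury strength. Some single genes are given without it only.

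**Figure D1:**
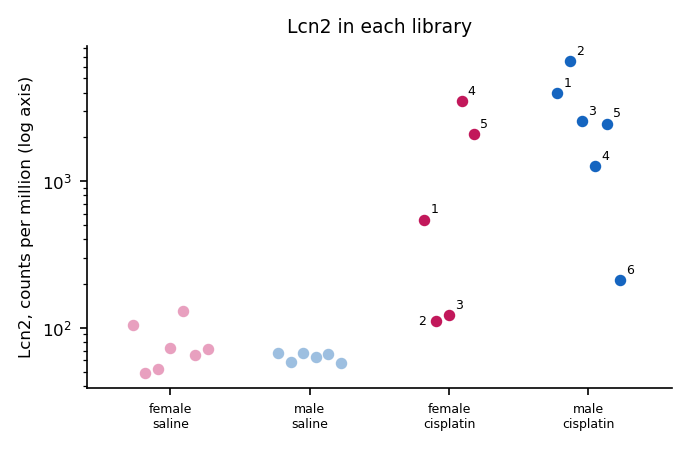
CPM of Lcn2 on a log axis, with 1 point per library in each of the 4 groups and the replicate number beside each cisplatin point. Female cisplatin libraries 2 and 3 sit at 111 and 122, inside the saline range, and the other cisplatin libraries lie above it.

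Without the covariate, 12 of 16431 autosomal genes (0.073%) differed between the sexes after cisplatin at an adjusted p under 0.05, and all 12 were higher in females (edgeR quasi-likelihood test, Benjamini-Hochberg adjustment over all tested genes). No gene passed in the male direction by this test, where 278 genes lower and 346 higher in females had an unadjusted p under 0.05. DESeq2's Wald test called 73 genes, 63 higher and 10 lower in females, and limma-voom 19 higher and 0 lower. With Lcn2 in the model, 1 gene (0.00609%) passed, Tbr1, and 393 genes had an unadjusted p under 0.05. With the covariate the common biological coefficient of variation fell from 0.309 to 0.267. DESeq2 then called 56 genes and limma-voom 9. The edgeR count without Lcn2 rested on single libraries: it was 0 without male library 2 or male library 3, 1 without male library 4, female library 1 or female library 2, and 28 without female library 4. Leaving out the 3 libraries with the lowest Lcn2, female 2 and 3 and male 6, left 0 genes with or without the covariate. In that fit of 3 females against 5 males, without Lcn2, the log2 fold changes of the 12 genes were 1.43 to 3.75.

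Of the 12 called genes 3 are protein-coding and 9 are processed pseudogenes, which are copies of a spliced messenger RNA inserted back into the genome. The highest-ranked was Tbr1 (ENSMUSG00000035033, chromosome 2), a T-box transcription factor known from glutamatergic neurons of the cerebral cortex. It stood at 1.77, 1.11, 1.48, 0.823 and 1.08 CPM in female cisplatin libraries 1 to 5. In males it ranged from 0.0703 to 0.218 CPM, with a median of 0.125. Every female library lay above every male library. Tbr1 and Ugt1a2 reached the minimum of 10 counts in all 5 female and 0 male libraries, so they entered the comparison through the females alone and their separation is in part set by that rule. The other 10 called genes reached it in 4 to 6 male libraries. For Tbr1 the log2 fold change of females over males was 3.20 ± 0.36 (SE; edgeR, adjusted p = 0.00946) without Lcn2 and 3.01 ± 0.37 (SE; adjusted p = 0.0393) with it. With no filter on low counts the adjusted p was 0.00555 and 0.0266. Over all alternatives of the fit (edgeR, DESeq2 or limma-voom), the adjusted p ran from 1.1e-07 to 0.285 without Lcn2 and from 1.57e-05 to 0.749 with it. When each of the 11 libraries was left out, Tbr1 was called 9 times without Lcn2 and 2 times with it (edgeR). Under saline the sexes overlapped, with 0.153 to 0.942 CPM in females and 0.163 to 0.628 in males (0.56 ± 0.42, SE; edgeR, adjusted p = 0.885).

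Ugt1a2 (ENSMUSG00000090171, chromosome 1) encodes a UDP-glucuronosyltransferase, an enzyme that attaches glucuronic acid to bilirubin, hormones and drugs for excretion. Its levels were 1.16, 3.11, 3.96, 0.484 and 0.791 CPM in female cisplatin libraries 1 to 5. The 6 male libraries held at most 0.139 CPM. The log2 fold change was 4.89 ± 0.69 (SE; edgeR, adjusted p = 0.0234) without Lcn2. With Lcn2 it was 3.90 ± 0.59 (SE) and missed the threshold (adjusted p = 0.0701). The difference was there under saline too, at 5.64 ± 0.53 (SE; edgeR, adjusted p = 0.000305), with 0.608 to 2.59 CPM in the 7 females and at most 0.0785 CPM in the males. Ugt1a2 was the only gene called in both comparisons, which share no library. The 2 female libraries with the most Lcn2, 4 and 5, had the least Ugt1a2. The mean log2 CPM of the proximal tubule and thick limb marker lists is called the tubule marker mean here. It too was lowest in these 2 among female cisplatin libraries, at 4.38 and 3.87. Genes of the Ugt1a cluster share their last exons and differ in the first: the longest transcripts of Ugt1a2 and Ugt1a7c match at 97.7% over 1421 bases. Ugt1a7c, named after its values were seen, went the other way at -0.73 ± 0.45 (SE; edgeR, adjusted p = 0.943).

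Stmn2 (ENSMUSG00000027500, chromosome 3) encodes stathmin 2, a microtubule-destabilising protein known from neurons. It had 2.76, 3.95, 5.33, 1.74 and 2.25 CPM in female libraries 1 to 5. The male libraries ranged from 0.351 to 1.22 CPM with a median of 0.586, below every female one. The log2 fold change was 2.32 ± 0.38 (SE; edgeR, adjusted p = 0.0482), just inside the threshold, and 1.92 ± 0.39 (SE; adjusted p = 0.224) with Lcn2.

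The 9 pseudogenes were all low in level, and each closely matches an abundant gene, called its parent here. The parent named is the match of highest mean CPM among those of at least 90% identity over at least 100 bases. Its abundance is thus partly set by that rule. Of the 9, Gm14150 (chromosome 2), Gm3226 (chromosome 13) and Gm5620 (chromosome 9) are 3 copies of Tuba1b, which encodes an alpha-tubulin. Their longest transcripts match it at 98.6%, 98.7% and 98.3% over 1356, 1349 and 1348 bases.

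Krt8-ps (chromosome 7) copies Krt8, a keratin of simple epithelia, at 98.6% over 941 bases. Gm7308 (chromosome 6) copies Calm2, which encodes calmodulin, at 96.9% over 447 bases. The stretches shown are bases 67 to 156 of the Krt8 coding sequence, where the copy differs at 1 base, and bases 1 to 90 of Calm2, where it differs at 3. They are shown because few letters tell a read of the copy apart from a read of the parent, and capitals mark the bases at which a copy differs. All sequences here are GENCODE M21 transcripts, 5′ to 3′.
Krt8: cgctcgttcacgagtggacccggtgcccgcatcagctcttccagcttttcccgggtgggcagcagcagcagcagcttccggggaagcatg
Krt8-ps: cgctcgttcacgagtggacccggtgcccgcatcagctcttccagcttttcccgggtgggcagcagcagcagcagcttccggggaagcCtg
Calm2: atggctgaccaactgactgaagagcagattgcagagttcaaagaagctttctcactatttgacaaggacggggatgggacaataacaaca
Gm7308: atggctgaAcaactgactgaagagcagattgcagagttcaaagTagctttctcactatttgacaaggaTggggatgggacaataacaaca

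The other 4 are copies of genes of translation and glycolysis. Gm49017 (chromosome 14) copies the elongation factor gene Eef1a1 at 95.0% over 279 bases. Gm12033 (chromosome 11) matches Gapdh, a glycolytic enzyme, at 100% over 300 bases. Gm4468 (chromosome 15) matches Rpl37 at 94.8% and Gm10224 (chromosome 6) matches Rpl15 at 98.9%, both genes of ribosomal proteins. The sources used here do not say how reads that match 2 places were counted, so the division of reads between these copies and their parents is uncertain. A copy of at least 90% identity over at least 100 bases, with at least 100 CPM, existed for 1958 of the 16431 tested genes (11.9%) and for 9 of the 12 called. Those 9 are the pseudogenes, and 267 of the 416 processed pseudogenes tested had such a copy.

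Gm7308 stood at 4.10, 4.57, 3.80, 1.74 and 3.12 CPM in female libraries 1 to 5, against 0.520 to 0.903 in males with a median of 0.698. Its log2 fold change was 2.30 ± 0.29 (SE; edgeR, adjusted p = 0.0164) without Lcn2 and 2.00 ± 0.28 (SE; adjusted p = 0.0603) with it. Gm49017, the most abundant of the 9, had 14.3, 14.7, 7.23, 3.73 and 13.2 CPM in the females and 0.851 to 2.81 in the males. Every female library was above every male one for both genes, and female library 4 was the lowest. The 9 log2 fold changes ran from 1.75 for Krt8-ps to 2.44 for Gm49017, and from 1.49 to 2.28 with Lcn2. Krt8-ps and Gm4468 were named after their values were seen. None of the 7 parent genes passed the test. Tuba1b had a log2 fold change of -0.21 ± 0.18 (SE; edgeR, adjusted p = 0.943), Krt8 -0.38 ± 0.26 (SE; adjusted p = 0.943) and Calm2 -0.03 ± 0.13 (SE; adjusted p = 0.984). Those of Eef1a1, Gapdh, Rpl37 and Rpl15 lay between -0.23 and 0.03.

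These pseudogenes also divided the female saline libraries. Gm7308 had 0.382 to 0.907 CPM in female saline libraries 1 to 4 and 1.98 to 3.16 CPM in libraries 5 to 7, and the male saline libraries held 0.537 to 0.911. For Gm49017 the same 3 ranges were 0.655 to 2.56, 8.92 to 11.6 and 1.57 to 2.78 CPM. For Gm5620 they were 0.143 to 0.462, 2.04 to 2.66 and 0.215 to 0.865 CPM. For these 3 genes female saline libraries 5 to 7 stood with the female cisplatin libraries, and libraries 1 to 4 with the males. Krt8-ps was less clear, with 0.764 to 1.60 CPM in libraries 1 to 4 and 1.54 to 4.43 in 5 to 7. Stmn2 had 0.267 to 1.22 CPM in libraries 1 to 4 and 2.64, 1.22 and 3.16 in libraries 5 to 7. Tbr1 divided in the same way, with 0.153 to 0.430 CPM in libraries 1 to 4 and 0.913 to 0.942 in libraries 5 to 7, and Ugt1a2 did not, with 1.27 to 2.25 and 0.608 to 2.59. The labels give no batch, date or other term that separates these libraries. For Tbr1 and the 9 pseudogenes every female cisplatin library lay above female saline libraries 1 to 4, while female cisplatin library 4 lay below libraries 5 to 7 for each of them but Krt8-ps. As no label says how the cisplatin libraries fall under this division, for these 10 genes sex after cisplatin and whatever divides the female saline libraries cannot be told apart.

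**Figure D2:**
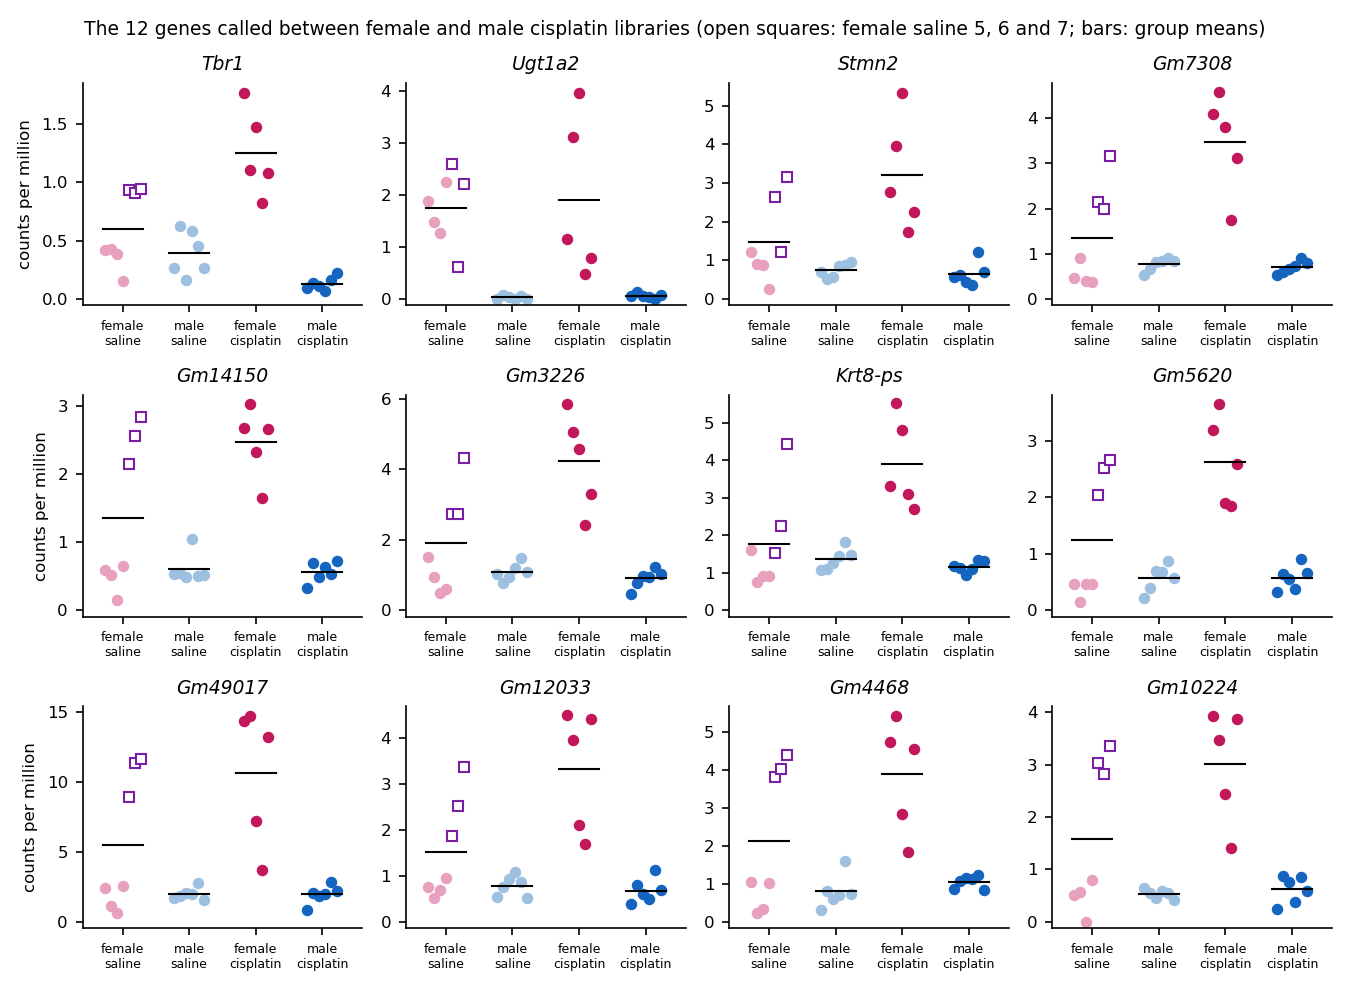
CPM of the 12 genes called between female and male cisplatin libraries, with 1 point per library and bars at group means. Open squares are female saline libraries 5, 6 and 7: for Tbr1 and each pseudogene but Krt8-ps they lie above all other saline points, and for Ugt1a2 all female libraries lie above all male ones.

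Where processed pseudogenes separated the cisplatin libraries by sex, they were higher in females. Among 416 processed pseudogenes tested, 31 (7.45%) had every female cisplatin library above every male one and 0 the reverse. Over all 16431 genes the corresponding counts were 55 (0.335%) and 14 (0.0852%), and among 13739 protein-coding genes 18 and 13. Of the 55 and 31 genes above in every female library, 6 and 2 reached the count minimum in females alone, and of the 14 below, 1 did so in males alone. The median log2 fold change of the processed pseudogenes was 0.14 without Lcn2, 0.16 with it and 0.15 under saline, against -0.01, -0.01 and 0.00 over all tested genes. Summed, these 416 genes had 820 to 1150 CPM in female and 699 to 1140 in male cisplatin libraries. Under saline they had 643 to 712 CPM in female libraries 1 to 4, 901 to 978 in libraries 5 to 7 and 676 to 698 in males. Whether libraries 5 to 7 alone carry the saline median was not tested. The reads of 41 ribosomal protein pseudogenes per 1000 reads of 76 ribosomal protein genes were 3.83, 4.24, 3.00, 2.35 and 3.58 in female cisplatin libraries 1 to 5 and 1.93 to 2.42 in the males. This ratio was 3.54 to 3.77 in female saline libraries 5 to 7 and 1.89 to 2.56 in libraries 1 to 4. Female cisplatin library 4 stood within the range of the males and of female saline libraries 1 to 4, and the other 4 female cisplatin libraries stood above both. Ribosomal protein genes themselves summed to 59100 CPM in male cisplatin library 5 and 22100 to 38700 CPM in the other cisplatin libraries.

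With the fit limited to protein-coding genes, 1 gene was called without Lcn2 and 1 with it. The 10 genes next outside the threshold were 9 processed pseudogenes and Elavl4, a neuronal RNA-binding protein gene named after its values were seen. Elavl4 had 0.916 to 3.22 CPM in females and 0.211 to 0.637 in males (2.38 ± 0.41, SE; edgeR, adjusted p = 0.053), and in the female saline libraries it had 0.305 to 0.630 in 1 to 4 and 1.54 to 1.64 in 5 to 7. Acta1, skeletal muscle actin and a member of the muscle and adrenal marker list, had 10.9, 9.81, 4.38, 2.23 and 12.7 CPM in female libraries 1 to 5 and 0.473 to 2.05 in males. Its log2 fold change was 2.47 ± 0.46 (SE; edgeR, adjusted p = 0.0878). Acta1 was again higher in female saline libraries 5 to 7, at 6.01 to 7.95 CPM, than in 1 to 4, at 0.809 to 2.37, and female cisplatin library 4 fell within the latter range. The whole list of 8 muscle and adrenal genes, Acta1 included, summed to 14.2 to 25.4 CPM in female and 10.6 to 15.0 in male cisplatin libraries. Of the 3 members tested, the other 2, Mylpf and Star, showed no female excess, with log2 fold changes of -0.11 and -0.00. The part of this list in these results was not tested.

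The female-male difference after cisplatin was next set beside that under saline, where 16 of 16431 genes (0.0974%) passed in the same test, 5 higher (0.0304%) and 11 lower (0.0669%) in females. All 16 had the same sign after cisplatin, 15 of them with a smaller log2 fold change. An unadjusted p under 0.05 there was found for 13 of them, against 3.8% of all tested genes. As the 16 were chosen by their values under saline, smaller values in other libraries can follow from that choice alone. Of the 16, 8 belong to the male-high and female-high lists described below. Ugt1a2 and the other 7, named after their values were seen, are Ren1, Rdh16f2, Ugt2b38, Slc22a30, Acsm2, Serpinf2 and Tmigd1. Ren1, which encodes the protease renin, had a log2 fold change of 0.98 after cisplatin and 2.48 under saline, and Rdh16f2, a retinol dehydrogenase family member, 1.09 and 2.54. Ugt2b38, a second glucuronosyltransferase, stood at -2.67 and -3.08, the transporter gene Slc22a30 at -2.64 and -3.25, and Acsm2, another acyl-CoA synthetase, at -2.14 and -2.63. After cisplatin 1 of the 16 was above in every female library and 2 were below in every one. Across all 16431 genes the 2 sets of log2 fold changes had a Pearson correlation of 0.293, and of 0.330 when the cisplatin fit included Lcn2. Genes are not independent replicates, and all libraries share their processing. The test of the difference itself, the sex by treatment interaction over all 24 libraries, called 0 genes (edgeR), with 696 at an unadjusted p under 0.05 and 0 by DESeq2 or limma-voom. Without female saline libraries 5, 6 and 7 the interaction called 8 genes, all with a larger female excess after cisplatin, of which 6 were among the 12 above, and without female saline libraries 1 to 4 it called 0. Libraries 5 to 7 were chosen after seeing the data and were high in most of the 12 genes. Leaving them out lowers the female saline level of such genes, so the larger female excess in them is partly set by that choice.

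**Figure D3:**
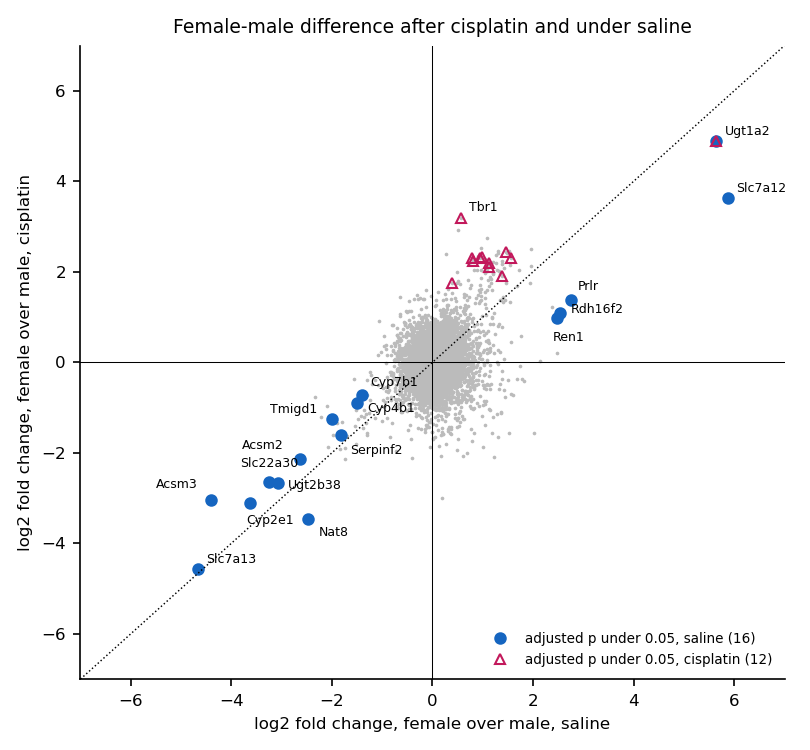
Log2 fold change of females over males for 16431 autosomal genes, under saline on the horizontal axis and after cisplatin on the vertical one, with equality dotted. The 16 genes called under saline (filled circles) keep their sign after cisplatin, and 11 of the 12 genes called after cisplatin (triangles) lie between 1.75 and 3.20 on the vertical axis.

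A list of 15 male-high kidney genes had negative log2 fold changes after cisplatin as under saline, and none of its members passed the test after cisplatin. All 11 tested members were negative, with a median of -1.66 without Lcn2, -2.59 with it and -1.74 under saline. Slc7a13, an amino acid transporter of the proximal straight tubule, had 0.819, 0.311, 0.422, 0.194 and 0.0832 CPM in female cisplatin libraries 1 to 5. In male libraries 1 to 6 it had 1.14, 0.418, 3.40, 19.6, 23.4 and 5.05 CPM. The groups overlapped through male library 2, the male library with the most Lcn2. Its tubule marker mean was also low, at 3.65 in a male cisplatin range of 3.55 to 5.73. The log2 fold change was -4.57 ± 1.01 (SE; edgeR, adjusted p = 0.218), close to the -4.66 ± 0.52 (SE; adjusted p = 0.000816) under saline. With Lcn2 the cisplatin value was -5.12 ± 1.14 (SE, edgeR, adjusted p = 0.292).

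Acsm3, an acyl-CoA synthetase for medium-chain fatty acids, separated the groups in every library. It had 0.333 to 0.577 CPM in the females and 0.976 to 9.98 in the males, with a male median of 2.65. The log2 fold change was -3.05 ± 0.61 (SE; edgeR, adjusted p = 0.126) without Lcn2 and -3.50 ± 0.62 (SE; adjusted p = 0.146) with it. Nat8, an N-acetyltransferase of the mercapturate pathway that clears glutathione conjugates, did so too, with 0.0528 to 0.311 CPM against 0.372 to 3.88. Its log2 fold change was -3.47 ± 0.71 (SE; edgeR, adjusted p = 0.130), and -3.65 ± 0.85 (SE, adjusted p = 0.351) with Lcn2. Cyp2e1, a cytochrome P450 that oxidises small solvents and drugs, had 0.250 to 0.823 CPM in females and 0.426 to 10.5 in males (-3.10 ± 0.77, SE; edgeR, adjusted p = 0.360). With Lcn2 its log2 fold change was -3.31 ± 0.83 (SE, edgeR, adjusted p = 0.504). Male libraries 1 and 2 were the only males within the female range, and they had the highest Lcn2 of all libraries. They also had the lowest tubule marker means of all libraries, 3.55 and 3.65. Which of the 2 goes with the low values was not tested.

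Other members showed smaller differences. Ces1f, a carboxylesterase, stood at -2.13 ± 0.54 (SE; edgeR, adjusted p = 0.418), Kap, the kidney androgen-regulated protein, at -1.66 ± 0.86 (SE; adjusted p = 0.943) and Mep1b, a brush border metalloprotease, at -1.11 on the log2 scale. The P450 genes Cyp4b1, Cyp4a12a and Cyp7b1 stood at -0.91, -0.77 and -0.72, and Odc1, the first enzyme of polyamine synthesis, at -0.32. Cyp2j13, Slco1a1, Timd2 and Cyp4a12b had too few counts to be tested, and none exceeded 0.222 CPM in a female cisplatin library. The calls for this list depended on the setting. With the mean log2 CPM of the proximal tubule and thick limb marker lists as covariate, Slc7a13 (adjusted p = 0.0411), Acsm3 (adjusted p = 0.0367) and Ces1f (adjusted p = 0.0273) passed in edgeR. Over all alternatives of that fit the adjusted p ran from 0.000802 to 1.00 for Slc7a13, from 5.87e-05 to 0.921 for Acsm3 and from 0.00823 to 1.00 for Ces1f.

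The female-high list was mixed after cisplatin as under saline. Of its 9 members 4 had positive and 5 negative log2 fold changes after cisplatin, with a median of -0.40 without Lcn2 and 0.08 with it. Under saline 5 were positive and 4 negative, with a median of 0.43. Slc7a12, an amino acid transporter gene, had 2.50, 2.80, 5.96, 0.774 and 0.583 CPM in female cisplatin libraries 1 to 5, and at most 0.632 in males. Only female library 5 fell inside the male range. The log2 fold change was 3.63 ± 0.76 (SE; edgeR, adjusted p = 0.146) without Lcn2 and 2.51 ± 0.66 (SE, adjusted p = 0.587) with it. Without Lcn2 the gene passed with the same tubule covariate (3.81, adjusted p = 0.00795; all alternatives without Lcn2, 0.000363 to 1.00). Under saline its log2 fold change was 5.87 ± 0.66 (SE; adjusted p = 0.000816), with 2.36 to 18.3 CPM in females. Prlr, the prolactin receptor, had 1.34, 1.33, 3.48, 0.242 and 0.375 CPM in the females and 0.0946 to 0.949 in the males. Its difference was 1.37 ± 0.66 (SE; edgeR, adjusted p = 0.943), and 0.24 ± 0.78 (SE) with Lcn2, against 2.76 ± 0.41 (SE; adjusted p = 0.00917) under saline. In both genes the lowest female libraries were 4 and 5, the 2 with the most Lcn2. These 2 also had the lowest tubule marker means of the female cisplatin libraries, 4.38 and 3.87. The interaction gave -2.28 ± 1.09 (SE; edgeR, unadjusted p = 0.0463, adjusted p = 0.942) for Slc7a12 and -1.41 ± 0.78 (SE; unadjusted p = 0.0858) for Prlr. Hao2, a peroxisomal hydroxyacid oxidase, stood at 0.69 and Cyp4a14 at 0.26, and Abcc3, Cyp2a5, Slc22a7, Akr1c14 and Cyp2a4 at -0.40, -0.41, -0.71, -0.88 and -1.34. Under saline Abcc3 stood at 0.43, and Cyp2a5, Slc22a7, Akr1c14 and Cyp2a4 were negative too, at -0.49, -0.38, -0.73 and -0.81.

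**Figure D4:**
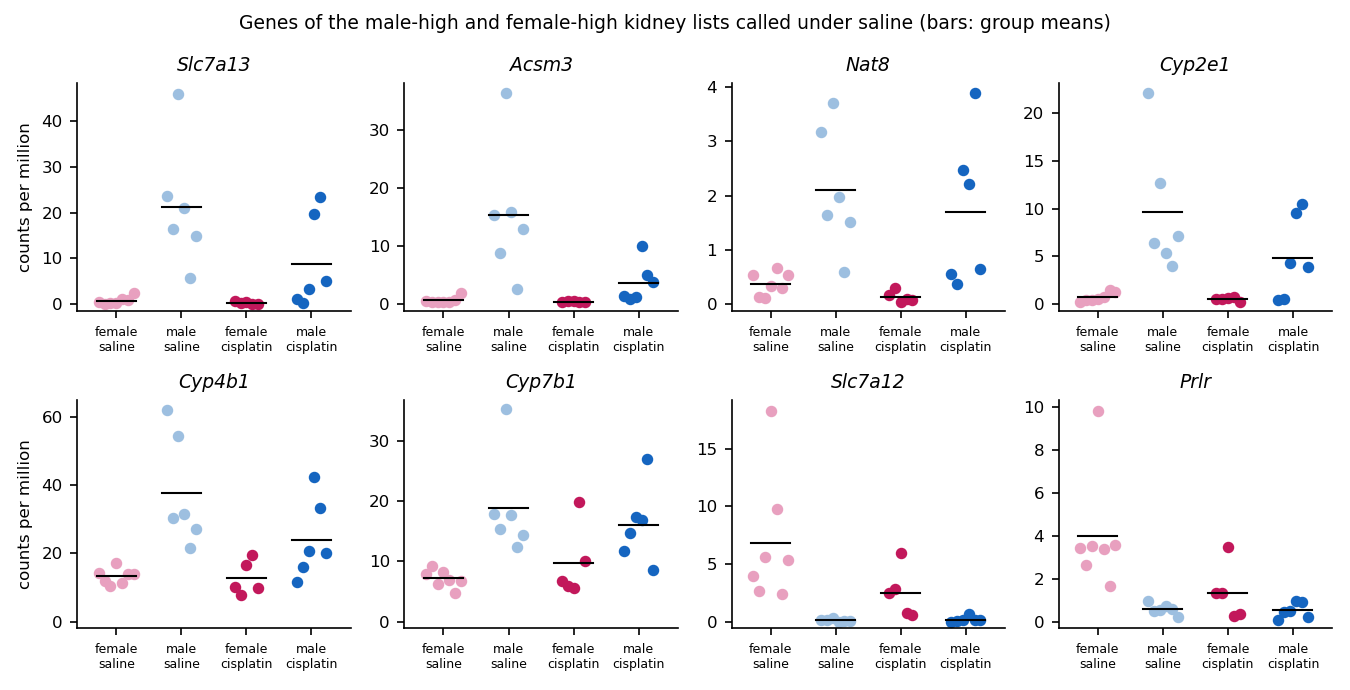
CPM of 6 male-high genes (Slc7a13, Acsm3, Nat8, Cyp2e1, Cyp4b1, Cyp7b1) and 2 female-high genes (Slc7a12, Prlr), with 1 point per library and bars at group means. Female cisplatin libraries stay at or under 0.819 for Slc7a13, and for Acsm3 and Nat8 the highest female cisplatin library lies below the lowest male one.

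None of the 6 tested steroid hormone receptors passed the test. All 6 had positive log2 fold changes without Lcn2, with a median of 0.33, and 4 of 6 with it, with a median of 0.10. Esr1, the estrogen receptor alpha, had 1.15 to 3.85 CPM in females and 1.09 to 3.72 in males (0.19 ± 0.38, SE; edgeR, adjusted p = 0.958). Gper1, a membrane receptor that responds to estrogen, had 3.97 to 18.2 and 2.36 to 15.9 CPM (0.62 ± 0.52, SE; adjusted p = 0.943), and its log2 fold change was 0.09 with Lcn2. Esr2 stood at 0.64, Pgr at 0.34, Nr3c1 at 0.32 and Nr3c2 at 0.02.

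The remaining lists cover injury, immunity, medullary function and metabolism. Of 546 tested genes on all 45 lists, 0 passed with or without Lcn2 (edgeR), and 32 and 33 had an unadjusted p under 0.05 without and with it (3.8% and 2.39% of all tested genes did). DESeq2 called 8 and 7 list genes, out of its totals over all genes given above, and limma-voom called 0 both times. Whether the lists hold more of DESeq2's calls than other genes do was not tested. Genes of these lists named from here on, other than cell type markers, were chosen after their values were seen. Adding Lcn2 changed the sign of several list medians. Of 25 interferon response genes 23 were lower in females without Lcn2 and 19 were higher with it, and the median moved from -0.42 to 0.18. Under saline 25 of 25 were higher in females, with a median of 0.25 and 13 at an unadjusted p under 0.05, which 6.8% of all tested genes had. Oas2, an antiviral enzyme gene, went from -1.04 to 0.19, and the interferon-induced Isg15 from -0.77 to 0.39. The 16 tested genes of tubular injury and repair moved from a median of -0.37, with 14 negative, to 0.14, with 7 negative. This list contains Lcn2 itself. Spp1, which encodes the secreted matrix protein osteopontin, went from -0.60 ± 0.52 (SE) to 0.32 ± 0.24 (SE), and Clu, the chaperone clusterin, from -0.59 to 0.28. Antigen presentation genes moved from -0.19 to 0.09 and complement and acute phase genes from -0.19 to 0.42.

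Drug handling lists kept their sign. Platinum transport genes had a median of -0.29 without Lcn2, -0.21 with it and -0.44 under saline, with 9, 8 and 8 of 11 negative. Abcc2, an export pump for glutathione and platinum conjugates, was lower in every female library than in every male one. It averaged 2.11 ± 0.77 CPM (SD, n = 5) in females and 5.07 ± 1.95 (SD, n = 6) in males, and its log2 fold change of -1.26 ± 0.34 (SE) did not pass (edgeR, adjusted p = 0.493). Slc22a2, the organic cation transporter that carries cisplatin into tubule cells, stood at -1.11 without and -1.85 with Lcn2. Slc31a1, a copper transporter linked to platinum uptake, had 118 ± 12.0 CPM (SD, n = 5) in females and 126 ± 29.1 (SD, n = 6) in males. Of 22 glutathione transferases 20 were negative without Lcn2, with a median of -0.24, and 15 with it, with a median of -0.07. Of 18 antioxidant response genes 17 were negative without Lcn2 and 11 with it, with medians of -0.20 and -0.05. The 21 tested p53 targets, genes that DNA damage turns on, had medians of -0.07 and 0.03.

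The median of all tested genes was -0.01 without and with Lcn2, and the lists of cell cycle, water transport and glycolysis genes lay close to it. Cell cycle genes had medians of -0.04 and -0.01, water, urea, sodium and potassium transport genes -0.02 and 0.02, and glycolysis genes -0.14 and -0.06. Extracellular matrix and TGF-beta genes had medians of 0.25 and 0.15, with 17 and 15 of 22 positive, and osmoprotection and NFAT5 genes 0.28 and 0.00. Endothelin, nitric oxide and prostaglandin genes had 0.24 and 0.29, with 4 and 2 of 20 at an unadjusted p under 0.05. Cytokine and NF-kB genes stood at 0.03 without Lcn2 and 0.31 with it, where 18 of 20 were positive. Cxcl1, a neutrophil-attracting chemokine, had 15.3 ± 12.7 CPM (SD, n = 5) in females and 5.85 ± 2.63 (SD, n = 6) in males, and log2 fold changes of 1.39 ± 0.47 (SE) and 1.54 ± 0.49 (SE; edgeR, adjusted p = 0.943 without Lcn2). Ptgs2, the inducible cyclooxygenase, had 9.84 ± 5.75 and 3.00 ± 1.91 CPM (1.71 ± 0.51, SE; adjusted p = 0.725).

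Cell type marker lists had medians of either sign. All 12 fibroblast and mural cell genes were positive without Lcn2, with a median of 0.61, and 11 with it, with a median of 0.23. They summed to 283 to 641 CPM in females and 138 to 510 in males. Lum, a collagen-binding proteoglycan, stood at 2.24 ± 0.79 (SE; edgeR, adjusted p = 0.943). Proximal tubule genes had a median of -0.34, and of -0.82 with Lcn2, where 16 of 16 were negative. This list includes Acsm2, called as lower in females under saline, and Kap of the male-high list, which was not called there (-0.85, edgeR, adjusted p = 0.699). Lrp2, the endocytic receptor megalin and also a member, stood at 0.43 ± 0.62 (SE) without and -0.61 ± 0.55 (SE) with Lcn2. Endothelial genes had medians of 0.30 and 0.03, macrophage and monocyte genes 0.25 and 0.08, and urothelial genes -0.33 and -0.17. The 8 neutrophil genes summed to at most 2.08 CPM in any cisplatin library and none passed the count rule. Of 10 lymphocyte genes 2 passed, with a sum of at most 7.44 CPM. The part of cell makeup in the list medians was not tested.

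**Figure D5:**
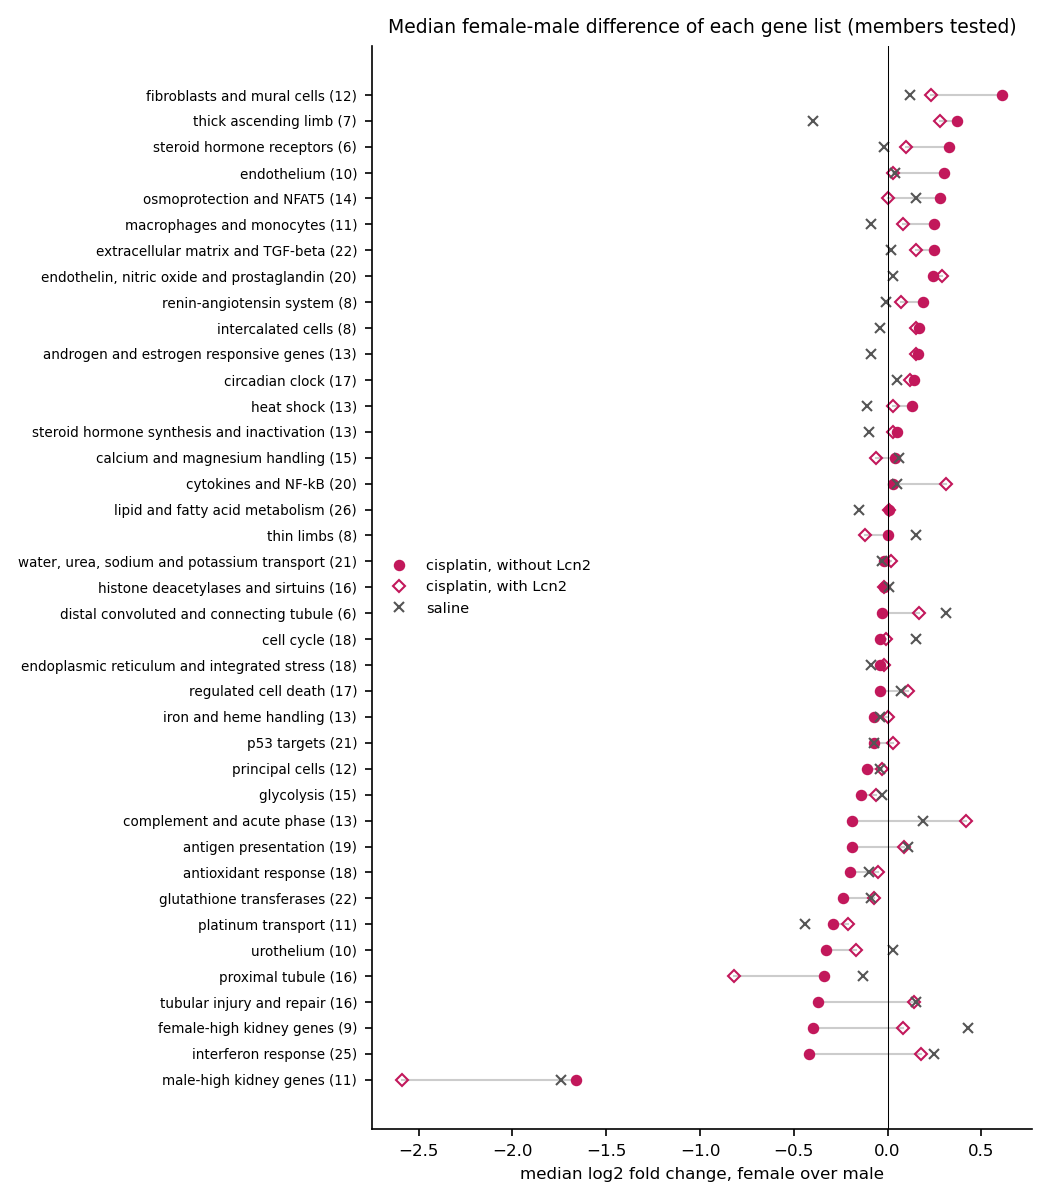
Median log2 fold change of females over males for each gene list with at least 5 tested members, after cisplatin without Lcn2 (filled circles), with Lcn2 (open diamonds) and under saline (crosses). The male-high list stands apart at -1.66, -2.59 and -1.74, and the interferon and injury lists change sign when Lcn2 is added.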

How the data were processed

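Poly(A) RNA from mouse inner medulla was sequenced in 24 libraries, of which the 5 female and 6 male cisplatin libraries are compared here. The authors deposited raw counts per Ensembl gene, 1 column per library. Per the submitters' processing notes, Trim Galore 0.6.7, Subread 2.0.1 with featureCounts, DESeq2 1.28.1 and the build mm10 were used; of the aligner, annotation release, strand setting and treatment of multiply mapping reads the sources used here say nothing. The file holds 2147 gene IDs of a release later than GENCODE M21, so no coordinates are printed, and 52083 of 55416 IDs matched a symbol. Multiply mapping reads bear on the pseudogenes, whose parents are nearly identical.

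From these counts, TMM factors and edgeR 4.0.16 quasi-likelihood tests (R 4.3.3) gave the fold changes, with Benjamini-Hochberg adjustment over 16431 autosomal genes and 0.05 as threshold; an SE is the log2 fold change divided by the square root of F. Lcn2 entered as centred log2 CPM (prior count 2). Printed CPM use TMM factors over 24 libraries. DESeq2 1.42.0 and limma 3.58.1 gave alternatives, besides other filters, scalings, covariates and left-out libraries. Copies were found with BLAST 2.17.0 between the longest GENCODE M21 transcripts. In simulated female against male cisplatin counts over 16431 genes, the test recovered 34 of 50 genes changed by 1, 48 of 50 by 2, 49 of 50 by 3 and 50 of 50 by 4 on the log2 scale, with 10 calls among unchanged genes. The simulated spread was estimated over all 24 libraries, and the changed genes averaged at least 1 CPM. The common biological coefficient of variation was 0.309 in the cisplatin fit and 0.246 over all 24 libraries. Recovery in the real cisplatin counts may therefore be lower, above all for genes of low level. No pair of libraries within a group agreed within sampling noise (lowest chi-square per gene 7.4 over 61 pairs). The labels do not say what replicate numbers stand for, and the main fits did not use them. Same-numbered female and male cisplatin libraries did not deviate together, which cannot show that the numbers carry no shared day or batch.

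Genes named are the 10 largest changes in each direction among called genes averaging at least 1 CPM in the higher sex, without and with Lcn2, and likewise up to 5 in the interaction; members of the receptor, male-high and female-high lists; Lcn2; marker genes; and others said to be chosen after their values were seen. The comparison, its lists and the alternatives were chosen with earlier results of these data known. Genes on X and Y, and 3333 IDs without a chromosome, were left out.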

Additional observations from a re-analysis of the deposited data

Results flagged for a closer look

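Single libraries stood far from the rest of their group (Dixon's test at the 95% level) in 8 of 112 combinations of 28 named genes and 4 groups, and chance alone flags about 1 in 20. In the cisplatin groups, Ren1 had 0.905 CPM in female library 1 against 1.74 to 2.08 in the other 4, and Slc7a12 had 0.632 CPM in male library 4 against 0 to 0.182 in the other 5. In the female saline group, library 7 was highest for Krt8-ps (4.43 CPM against 0.764 to 2.24), Slc7a13 (2.38 against 0.191 to 1.10) and Acsm3 (2.01 against 0.347 to 0.684), and library 4 was highest for Prlr (9.81 against 1.64 to 3.56). In the male saline group, Gm14150 had 1.05 CPM in library 4 against 0.489 to 0.550, and Cyp7b1 had 35.2 CPM in library 3 against 12.4 to 17.8.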

How the results depend on the processing

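Without Lcn2, the 12 called genes became 73 with DESeq2's Wald test, 19 with limma-voom, 31 with no low-count filter, 1 among protein-coding genes only, 0 without the 3 libraries of lowest Lcn2 (chosen after seeing the data, as was the protein-coding setting) and 0 to 28 when each library was left out. Counts stayed between 12 and 18 under the other settings (DESeq2 size factors, total counts, robust fit, filterByExpr, genes of unknown chromosome and mitochondria kept, X and Y kept, tubule marker score, all 24 libraries). With Lcn2, the 1 called gene became 56 with DESeq2, 9 with limma-voom, 14 with no filter, 5 with X and Y kept in the fit, 4 with an injury list score in place of Lcn2, and 0 with the tubule score, separate slopes per sex, the rank of Lcn2 or the low-Lcn2 libraries left out. It was 0 to 7 when each library was left out. With the replicate number as a block the counts were 0 and 0. The labels do not say what these numbers stand for. The deviations of same-numbered libraries had correlations of -0.318 to 0.065. In the saline comparison, 16 became 54 with DESeq2, 5 with limma-voom, 39 with no filter, 38 with the tubule score, 6 with the replicate block, and 9 and 56 without female saline libraries 5 to 7 and 1 to 4 (chosen after seeing the data); leaving out each library gave 12 to 21. The interaction called 8 genes without female saline libraries 5 to 7 and 0 under every other setting run, the replicate block included. The Lcn2 difference was -2.41 to -1.16 when each library was left out, with exact permutation p of 0.0714 to 0.371. No named gene changed direction while called. The cause of these changes was not tested, beyond the fewer genes or libraries that some settings hold. Genes near 1 CPM rest on few reads.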

Other observations

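In the interaction over all 24 libraries, 479 genes with an unadjusted p under 0.05 had a lower and 217 a higher female-male difference after cisplatin than under saline, and 0 passed adjustment (edgeR). The interferon response list had a median interaction of -0.74 on the log2 scale over its 25 tested genes, the tubular injury and repair list -0.41 and the urothelial list -0.53, while the thick ascending limb list stood at 0.84 and the fibroblast and mural cell list at 0.51, against -0.02 over all tested genes. The 5 erythroid genes summed to 5.87 to 13.9 CPM in female and 4.63 to 15.2 in male cisplatin libraries, and to 97.7 to 392 CPM in female and 150 to 380 in male saline libraries, so that both sexes stood far below their saline groups with no overlap. The 10 lymphocyte genes summed to 5.06 to 54.8 CPM (median 7.51) in the female and 5.18 to 8.37 (median 6.44) in the male saline group, and to 2.96 to 7.44 (median 4.93) and 1.99 to 7.17 (median 3.79) in the cisplatin groups, so the ranges overlapped.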
